A study of Mus musculus with 14 samples.

Results

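Oxidative phosphorylation passes electrons from NADH and succinate to oxygen through 4 complexes of the inner mitochondrial membrane, and the proton gradient they build drives ATP synthase, the fifth complex. Most subunits are encoded in the nucleus and imported, and a core set of hydrophobic subunits is encoded by mitochondrial DNA, so the complexes are built from the products of both genomes. In the mammary gland the system supplies the epithelium with ATP, and the demand for it rises in lactation.

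The genes described here are the protein-coding genes whose symbols name subunits of these complexes (Nduf, Sdh, Uqcr, Cyc1, Cox4 to Cox8 and Atp5 symbols, and all symbols beginning with mt-). The rule used names and no measured value. It found 89 of the 16124 genes in the table, and all 89 are nuclear: 44 for complex I, 4 for complex II, 9 for complex III, 15 for complex IV and 17 for complex V. By its wording the rule also took 8 complex I assembly factors (Ndufaf1 to Ndufaf8), the supercomplex factor Cox7a2l, and Atp5s, which is not a stable subunit of ATP synthase. Genes with mt- symbols numbered 0, so transcripts of mitochondrial DNA were not analysed here and the comparison between the genomes was not made.

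The libraries came from the mammary epithelium of female mice aged 3.5 months, 7 wild type (WT) and 7 Usp22 OE/OE (OE). There was 1 library per mouse, with each OE mouse matched to a WT littermate. The pairs carry the numbers 1, 3, 4, 5, 6, 7 and 8. OE mice were homozygous for a tagged Usp22 cDNA at the Rosa26 locus (Rosa26KI-Usp22) behind the CAGGS promoter, whose LoxP-flanked stop had been removed in the germ line by Zp3-cre, so every tissue carried the active allele. Usp22 encodes the deubiquitinase of the chromatin complex SAGA, and the comparison asked which transcripts differ when it is in excess. The cells came from organoids separated from stroma by centrifugation, without a sort.

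Usp22 stood between 3500 and 5380 normalized counts across WT libraries and between 74948 and 144288 across OE libraries, in accord with every label. Depth was 20125106 to 41835978 counted fragments. All 11 pan-epithelial markers were in the table (Epcam and keratins among them), the lowest at 864 normalized counts in any library. Markers of stroma were present too, at 0 in none of the libraries: the mean log2 level over 8 pericyte markers was 9.45 to 10.50 in WT and 8.38 to 10.48 in OE, and that over 12 white adipocyte markers 7.21 to 8.70 and 6.40 to 8.22. The OE library of pair 4 stood apart, with the lowest pericyte (8.38), endothelial (10.67), fibroblast (11.80) and adipocyte (6.40) scores of the 14 and the highest proliferation score (10.08). The results it moved most are given without its pair too.

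Many promoters of these genes carry sites for shared regulators, such as nuclear respiratory factor 1 (NRF1), GABP, YY1 and the oestrogen-related receptors (ERR). Promoter windows from RefSeq (GRCm38.p6, 250 bases before the transcription start to 50 after it) were matched to 74 of the 89 genes and searched on both strands. The NRF1 core CGCATGCG, which reads the same on both strands, was in 11 of the 74 windows (14.9%) and in 3.81% of the windows of all 11718 table genes that matched. Its sites are shown because, among the motifs found in more than 2 windows, this one exceeded its share in the table genes by the most. Each line gives 10 bases on either side (9 before it for Atp5l) on the strand of the gene, with the core in capitals.
Atp5g2 (chr15:102671071-102671098, minus strand): gctccggccgCGCATGCGcagagccttc
Atp5k (chr5:108434431-108434458, minus strand): ttcactgcggCGCATGCGcctttctggc
Atp5j (chr16:84835106-84835133, minus strand): ggccagaataCGCATGCGtacagtgcag
Atp5l (chr9:44920966-44920992, minus strand): aaccaataaCGCATGCGcatttccccc
Cox6a1 (chr5:115349102-115349129, minus strand): aggaacggggCGCATGCGcgctctcgct
Uqcr11 (chr10:80406809-80406836, minus strand): atcgccttcaCGCATGCGctatacgtct
Ndufa8 (chr2:36049330-36049357, minus strand): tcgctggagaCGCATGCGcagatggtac
Ndufa11 (chr17:56717693-56717720, plus strand): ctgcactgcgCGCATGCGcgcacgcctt
The other 3 windows with the core were those of Ndufaf4, Ndufaf5 and Uqcrc1. The first base of the core lay between -241 (Atp5l) and 32 (Uqcrc1) relative to the start site.

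The ERR element TCAAGGTCA was in 2 windows (2.70%, against 0.307% of the table genes), those of Atp5g3, a gene for the proton-carrying c subunit of ATP synthase, and Sdhd, a membrane anchor of complex II. The 150 bases before the start of Atp5g3 (chr2:73911327-73911476, minus strand) are shown with the element, read here from the other strand, in capitals, its first base at -52.
Atp5g3: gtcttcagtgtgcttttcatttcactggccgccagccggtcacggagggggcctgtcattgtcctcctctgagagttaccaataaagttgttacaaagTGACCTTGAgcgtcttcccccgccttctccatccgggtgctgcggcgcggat
The shorter form AAGGTCA, which the full element contains, was in 8 windows (10.8%, against 4.04%). The YY1 motif AAGATGGCG was in 8 windows (10.8%, against 3.11%), and the GABP core CCGGAAG in 18 (24.3%, against 18.1%). The median GC content of the windows was 58.6% for these genes and 60.3% for the table genes. A match is a run of letters and not a measured binding site.

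None of the 89 oxidative phosphorylation genes differed between OE and WT at the threshold of the study. When limma was fitted to log2(normalized count + 1) with littermates blocked, 0 of the 89 had an unadjusted p of 0.05 or less, while 614 of all 16124 genes did (3.81%). The counts were also 0 of 89 with edgeR's quasi-likelihood test, with DESeq2 and with a paired test on untransformed values. All 89 had Benjamini-Hochberg adjusted p-values of 1.000 in the limma fit. The smallest unadjusted limma p of a member was 0.0777, for Ndufaf3.

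Most estimates were smaller than their standard errors (SE). Log2 fold changes (OE over WT) ran from -0.27 to 0.08 with a median of -0.07, beside a median of -0.001 over all genes, and 78 of the 89 lay below 0, as did 50.4% of all genes. Their standard errors had a median of 0.13, and their limma p-values a median of 0.553. The 95% interval of the fold change lay within a log2 of 1 in either direction for all 89 genes and within 0.5 for 78 of them. WT and OE ranges overlapped for all 89 genes. No share over all genes is at hand for the intervals or the ranges, so these counts describe the members alone. In bulk RNA, fewer cells of a type and less RNA per cell cannot be told apart, and this holds for every value here.

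**Figure D1:**
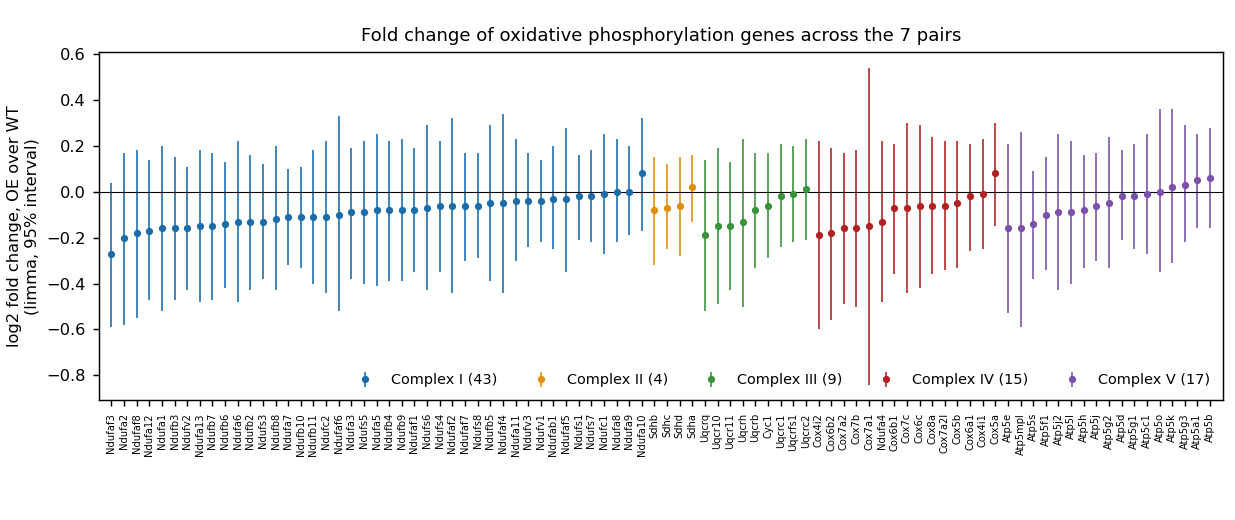
Log2 fold change of 88 of the 89 genes, OE over WT (vertical axis), from limma with the pair as a block; points are estimates, bars 95% intervals, and genes are ordered by estimate within complex I to V. Every interval crosses 0, and that of Cox7a1 (-0.84 to 0.54) is the widest.

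No member was higher in OE in all 7 pairs and none was lower in all 7, where 243 of all genes (1.51%) changed in 1 direction in every pair. Ndufaf3, Sdhb, Cyc1, Uqcrc1 and Atp5s were lower in 6 pairs, and 0 members were higher in 6. In the exact sign-flip test over the 7 pair ratios, two-sided, which cannot go below 0.0156, the smallest p of a member was 0.0781 (Atp5s).

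The pairs themselves did not move alike. In pair 4, 85 of the 89 genes were higher in the OE mouse, with a median log2 ratio of 0.44. In pair 5, 87 were lower in the OE mouse (median -0.40), and in pair 8 also 87 were lower (median -0.54). In the remaining pairs the medians lay near 0: 0.07 in pair 1, -0.05 in pair 3, -0.02 in pair 6 and 0.04 in pair 7. The mean of the 7 medians was -0.07 with an SD of 0.32, so the difference between genotypes was far inside the spread between pairs.

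**Figure D2:**
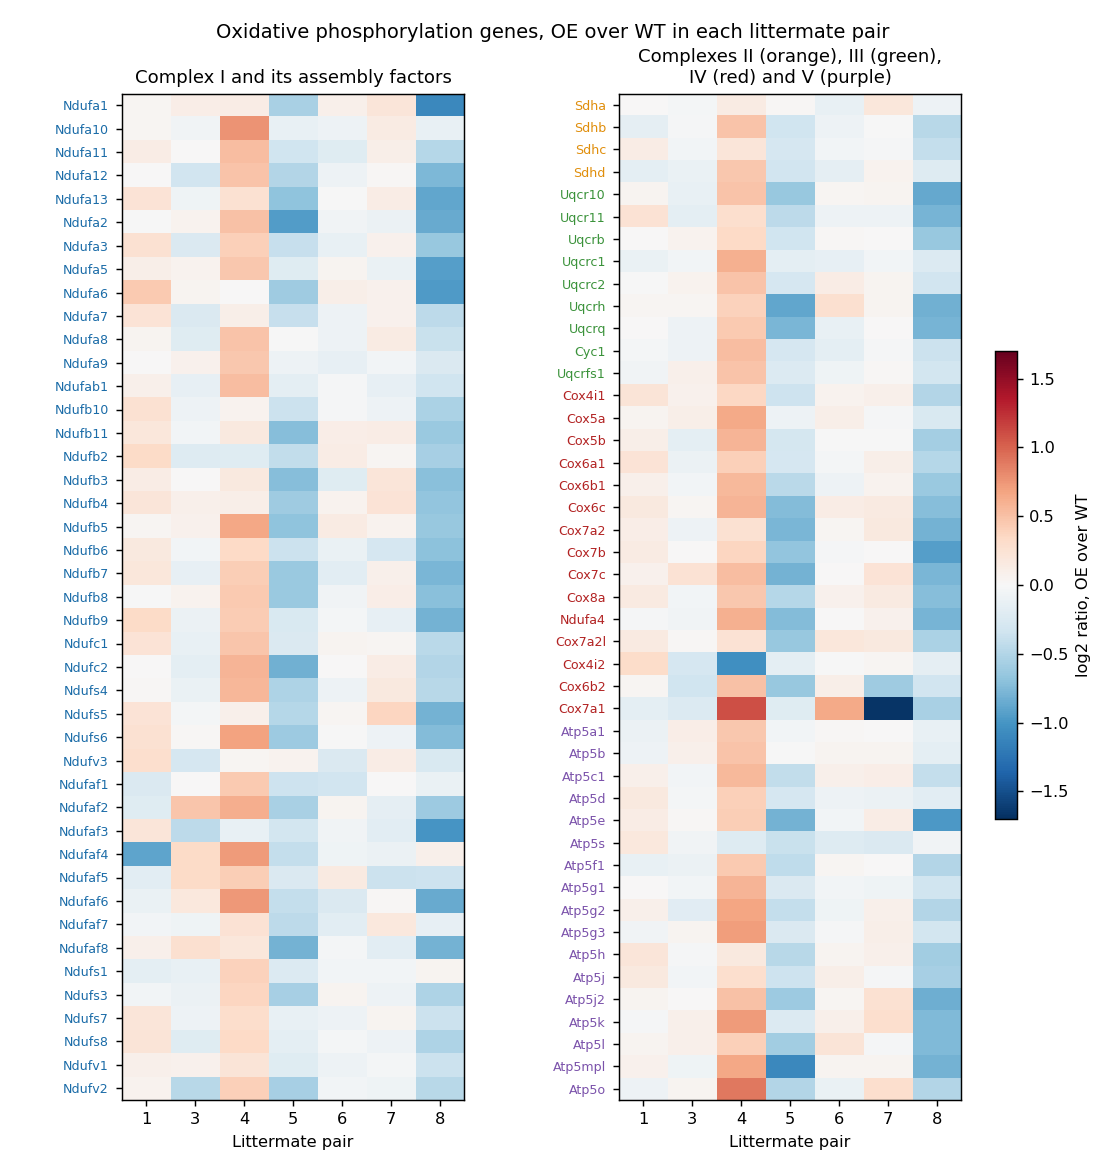
Log2 ratio of OE over WT for 88 of the 89 genes (rows, coloured by complex) in each littermate pair (columns); red is higher in OE. Pair 4 is red and pairs 5 and 8 are blue across complexes I to V, with medians of 0.44, -0.40 and -0.54, and Cox4i2 in pair 4 (-1.04) and Cox7a1 in pair 7 (-1.67) stand out against their columns.

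The shift was shared by all 5 complexes. In pair 4 the median ratio was 0.42 for complex I, 0.33 for complex II, 0.48 for complex III, 0.50 for complex IV and 0.48 for complex V. In pair 8 the same medians were -0.55, -0.31, -0.65, -0.58 and -0.50. Complex II moved least in both. Its 4 transcripts had a median length of 2066 bases, where the other complexes had medians of 618 to 963. The part of length in this was not tested.

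Complex I receives electrons from NADH. Of its 7 core subunits encoded in the nucleus 0 were called, and their median log2 fold change was -0.04. Ndufs1, which holds iron-sulfur clusters of the electron path, was at 1754 to 2123 normalized counts for WT (median 1981) and 1499 to 2604 in OE (median 1898), for a log2 fold change of -0.02 (SE 0.08). It was the steadiest of the core genes: WT libraries lay in a narrow band, and OE libraries reached beyond it at both ends. Ndufv1, the NADH-binding subunit, ran from 1913 to 4125 in WT (median 2760) and from 1654 to 4812 in OE (median 2610), at -0.04 (SE 0.08). The 29 accessory subunits had a median log2 fold change of -0.09, with 0 called.

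The 8 assembly factors act on complex I while it is built and are absent from the finished enzyme. They were expressed at lower levels, a median of 173 normalized counts per kb of transcript in WT against 1190 for the core subunits and 1293 for the accessory subunits. Ndufaf3 was at 172 to 550.5 normalized counts for WT (median 395) and 139 to 506 in OE (median 311). The ranges overlapped almost throughout, and the OE mouse was lower in 6 of 7 pairs. Its log2 fold change was -0.27 (SE 0.14), with a limma p of 0.0777 and an exact sign-flip p of 0.0938. Without pair 1 it was -0.35 and was called, in a fit that called 7.42% of all genes, where the fit of all pairs called 3.81%. Ndufaf4 followed the other members least, with a correlation of 0.42 across the 14 libraries with the median of the set; its ratio was -0.90 in pair 1, 0.33 in pair 3 and 0.72 in pair 4. Reads of Ndufaf2 are uncertain, since 63.2% of the 75-base windows of its transcripts also occur in other genes.

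Complex II, succinate dehydrogenase, also serves the citric acid cycle, and its 4 genes had a median log2 fold change of -0.07. The flavoprotein gene Sdha was at 5269 to 7334 normalized counts for WT (median 6568) and 5446 to 8105 in OE (median 6242). Its fold change, 0.02 (SE 0.07), had the tightest error of the catalytic genes, and its libraries spanned 1.54-fold in all. Sdhb, the iron-sulfur subunit, was at 1135 to 2380 in WT (median 1905) and 897 to 3310 in OE (median 1739), lower in OE in 6 of 7 pairs, at -0.08 (SE 0.11) and, without pair 4, at -0.18. The membrane anchors Sdhc (1934 to 4262 in WT, 1589 to 4901 in OE) and Sdhd (1517 to 2790 in WT, 1208 to 3848 in OE) had fold changes of -0.07 and -0.06. In each of these 3 genes the highest and the lowest library were both OE, from pairs 4 and 5.

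Complex III passes electrons from ubiquinol to cytochrome c. Its nuclear catalytic subunits are cytochrome c1 (Cyc1) and the Rieske iron-sulfur protein (Uqcrfs1). Cyc1 was at 1788 to 3713 normalized counts for WT (median 2625) and 1469 to 5325 in OE (median 2330), with a log2 fold change of -0.06 (SE 0.10). The OE mouse was lower in 6 pairs and higher only in pair 4. Without pair 4 the fold change was -0.16 and was called by a narrow margin. That fit called 8.47% of all genes, where the fit of all pairs called 3.81%. Uqcrfs1 was at 2277 to 3744 in WT (median 3142) and 1937 to 5205 in OE (median 2602), at -0.01 (SE 0.09). The core protein gene Uqcrc1 was at 3182 to 6085 in WT (median 4558) and 2836 to 9278 in OE (median 4132), and it too was higher in OE only in pair 4. The 7 subunits outside the catalytic pair had a median of -0.13, with Uqcrq lowest at -0.19 (SE 0.15).

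Complex IV, cytochrome c oxidase, was represented by 11 general subunits, 3 tissue-restricted isoforms and Cox7a2l. The general subunits had a median log2 fold change of -0.06 with 0 called. Cox4i1, the regulatory subunit of most tissues, was at 4360 to 13392 normalized counts for WT (median 9061) and 3424 to 17082 in OE (median 9400), at -0.01 (SE 0.11). Cox5a was at 1537 to 3367 in WT (median 2461) and 1458 to 5236 in OE (median 2221), at 0.08 (SE 0.10). The small subunits Cox6a1 (2057 to 6787 in WT, 1692 to 8971 in OE) and Cox8a (2222 to 7899 in WT, 1596 to 10885 in OE) had fold changes of -0.02 and -0.06.

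The tissue-restricted isoforms were rare beside their general partners. As a share of both isoforms per base of transcript, Cox4i2, the form of lung and oxygen-sensing cells, made up 0.659% ± 0.127 (SD, n = 7) of Cox4i1 plus Cox4i2 in WT and 0.616% ± 0.210 in OE, and the share was higher in OE in 3 of 7 pairs. Without pair 4 the shares were 0.671% ± 0.134 in WT and 0.682% ± 0.129 in OE (n = 6), so the order of the means turned, and the log2 fold change of Cox4i2 was -0.05 in place of -0.19. The OE library of pair 4 had the lowest Cox4i2 share, 0.220%, and the lowest level of the pericyte marker Rgs5, 2248 normalized counts where the others had 4874 to 10732; the part of that library's cell makeup in this value was not tested. Cox6b2, best known from testis, made up 3.28% ± 0.522 in WT and 3.07% ± 0.671 in OE of its pair with Cox6b1.

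Cox7a1, the form of heart, muscle and brown fat, made up 2.34% ± 1.14 in WT and 2.72% ± 1.54 in OE of its pair with Cox7a2. It ranged from 5.08 to 69.9 normalized counts for WT (median 36.6) and from 0.907 to 99.7 in OE (median 36.7), and its log2 fold change of -0.15 had a standard error of 0.31, the largest of the set. The lowest value is about 1 fragment (1 fragment is worth 0.907 normalized counts in that library). Ndufa4l2, the hypoxia-inducible relative of Ndufa4, which the rule did not take, made up 4.12% ± 1.06 in WT and 4.13% ± 2.01 in OE. Its share was 0.552% in the OE library of pair 4. Without pair 4 the shares were 4.28% ± 1.06 in WT and 4.73% ± 1.36 in OE (n = 6). The exact sign-flip p-values of the 4 isoform shares over all 7 pairs, two-sided, were 0.625, 0.484, 0.359 and 0.984.

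Complex V, ATP synthase, had the highest median level, 4168 normalized counts per kb of transcript in WT against 3683 for complex IV. Atp5b, the catalytic beta subunit, was at 23925 to 38749 normalized counts for WT (median 32373) and 23780 to 53251 in OE (median 32810), with a log2 fold change of 0.06 (SE 0.10). Atp5a1, the alpha subunit, was at 16290 to 27790 in WT (median 23560) and 15765 to 38302 in OE (median 21754), at 0.05 (SE 0.09). In both genes the WT and OE libraries had nearly the same lower end, and the OE mouse of pair 4 alone lay above the rest. The 5 subunits of the soluble F1 head had a median of -0.01, and the 11 of the stalk and the membrane part Fo a median of -0.06.

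The c ring of ATP synthase is built from a single mature protein that 3 genes encode. Per base of transcript, Atp5g3 supplied 56.7% ± 2.90 (SD, n = 7) of their transcripts in WT and 57.9% ± 3.77 in OE. Atp5g2 supplied 37.3% ± 3.18 and 36.2% ± 4.04, and Atp5g1 5.99% ± 0.424 and 5.89% ± 0.315. The lengths used were 718.5 bases for Atp5g3, 586 for Atp5g2 and 2675.5 for Atp5g1, so the low Atp5g1 share rests on its long transcript. Before division by length the WT means were 5700, 3122 and 2255 normalized counts in the same order. The share of Atp5g3 was higher in OE in 6 of 7 pairs, with an exact sign-flip p of 0.156. Of the windows of Atp5g2 35.8% also occur in other genes, and in Atp5g3 0%, so here Atp5g2 is less certain than Atp5g3.

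**Figure D3:**
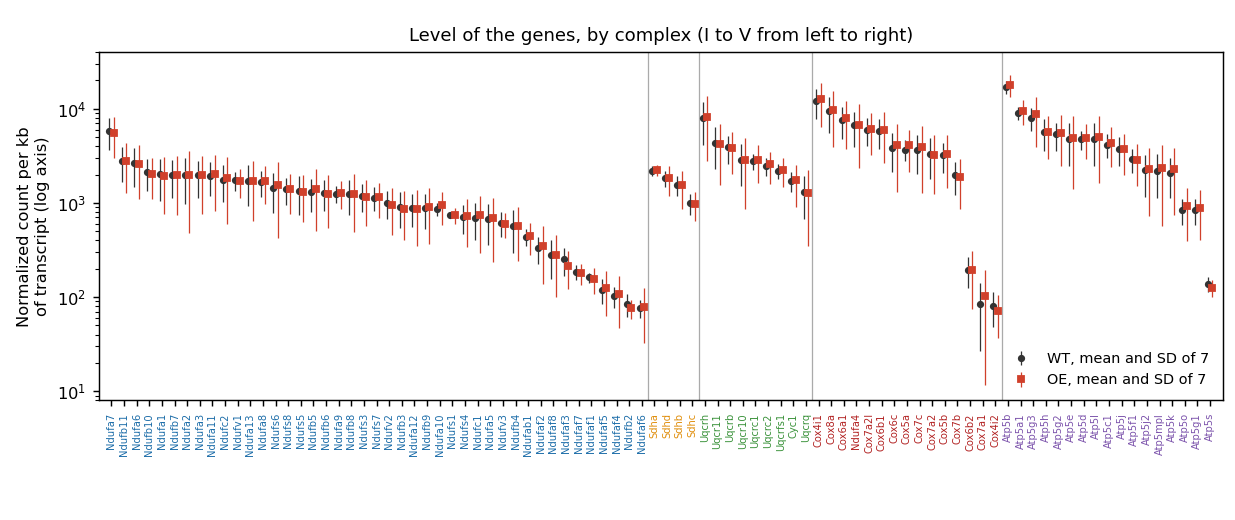
Level of 88 of the 89 genes in normalized counts per kb of transcript (log axis) in WT (black) and OE (red), mean and SD of 7 libraries, ordered within complex I to V. Atp5b (17075 in WT) and Cox4i1 (11964) are highest, and the assembly factors, Ndufb2, Atp5s and the isoforms Cox6b2, Cox7a1 and Cox4i2 lie far below their complexes.

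Per kb of transcript, levels within a complex spanned a wide range although the finished enzymes hold their subunits in fixed ratios. In complex I the order in WT began with Ndufa7 at 5804 ± 2141 (SD, n = 7), Ndufb11 at 2814 ± 1148 and Ndufa6 at 2623 ± 1158, and it ended with Ndufaf4 at 102 ± 25.2, Ndufb2 at 83.9 ± 22.9 and Ndufaf6 at 76.6 ± 17.0. Ndufb11 and Ndufa6 varied with the median of the set across libraries (correlations of 0.98 and 0.96), so the overlap of their SDs does not decide their order. In complex III Uqcrh (7957 ± 3811), Uqcr11 (4337 ± 2033) and Uqcrb (3875 ± 1301) were highest, and Uqcrfs1 (2187 ± 383), Cyc1 (1719 ± 418) and Uqcrq (1301 ± 624) lowest.

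In complex IV Cox4i1 (11964 ± 4212) was followed by Cox8a (9352 ± 3896) and Cox6a1 (7591 ± 2778). Each correlated at 0.99 with the median of the set across libraries, so the overlap of these SDs does not decide the order. In complex V Atp5b (17075 ± 2591) stood well above Atp5a1 (9050 ± 1479) and Atp5g3 (7933 ± 2201). Atp5o (847 ± 260.0), Atp5g1 (843 ± 256) and Atp5s (138 ± 23.6) were lowest. The place of Atp5o is uncertain, since 34.2% of its windows also occur in other genes and 702 of its exon bases overlap the other strand. In complex II Sdha (2190 ± 263) was highest and Sdhc (999 ± 247) lowest. The lengths are those of the leading coding transcripts of GENCODE, and a gene that uses another transcript in these cells would shift in the order. Exons of 27 of the 89 genes, such as Atp5j beside Gabpa, overlap a gene on the other strand, and without strand in the counting such reads cannot be told apart.

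What the genes shared above all was their variation between littermate pairs. The litter and whatever else the libraries of a pair had in common cannot be told apart. The median log2 deviation of the 89 genes from their 14-library means was lowest in both mice of pair 5 (-0.90 in WT, -1.26 in OE) and pair 7 (-0.64 in both), and highest in both of pair 4 (0.66 in WT, 1.11 in OE). Of the 89 genes, 83 had their highest value in the OE mouse of pair 4 and 82 their lowest in the OE mouse of pair 5. The members took 0.422% and 0.312% of all counted fragments in WT and OE of pair 5, and 0.890% and 1.26% in pair 4. The pair accounted for a median of 93.0% of a member's sum of squares and the genotype for 0.402%, beside 76.2% and 1.30% over the 13230 genes with a mean of at least 50 normalized counts.

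**Figure D4:**
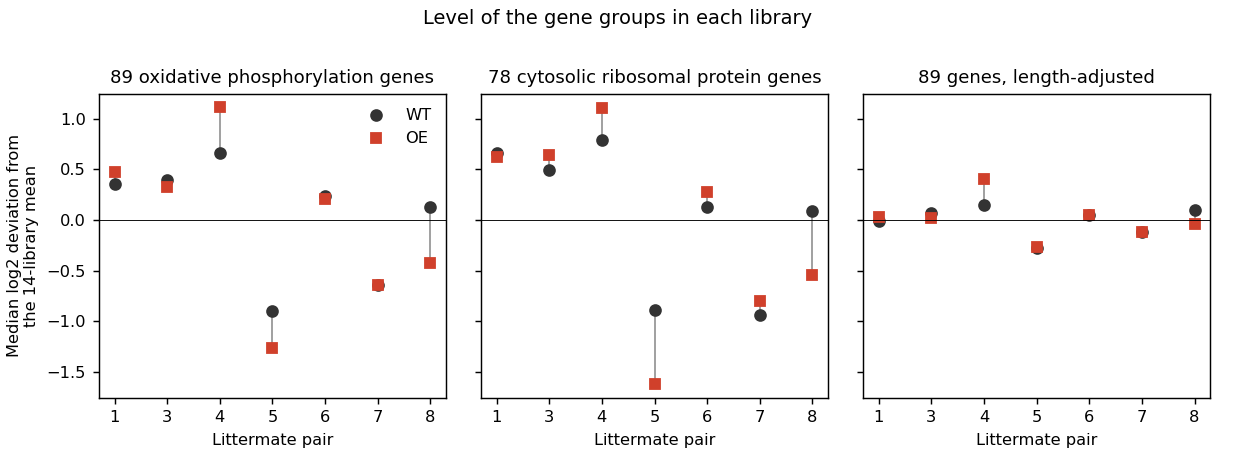
Median log2 deviation from the 14-library mean (vertical axis) in each littermate pair for the 89 genes, for 78 cytosolic ribosomal protein genes, and for the 89 genes after adjustment for transcript length; black circles are WT, red squares OE, and lines join littermates. Pairs 5 and 7 lie low and pair 4 high in the first 2 panels, and the spread shrinks to between -0.28 and 0.40 in the third.

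The genes varied together. Over 3916 pairs of members the median correlation across the 14 libraries was 0.94. By a different measure, correlation with the median of the set, other genes had a median of -0.06. Libraries of a pair share a litter, and the genes of a library share its depth, so these correlations are descriptions. Sdha and Ndufs1 moved least, with slopes of 0.24 and 0.15 log2 units per unit of the median of the set. Ndufa2 and Atp5mpl moved most among well-expressed members, with slopes of 1.64 and 1.65. Atp5mpl, a small Fo protein, ran from 379 normalized counts for WT and 177 in OE up to 1700 and 2694.

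Transcript length moved with this pattern. The 89 transcripts had a median length of 865 bases, beside 2931 for all coding genes of the table, and 52 of them (58.4%) were at most 1000 bases long, as were 6.15% of coding genes. Over the members the slope was lower for longer transcripts (Spearman's rho -0.76 across 89 genes, which are not independent). Other short coding genes moved in the same direction: in pair 8 the 667 other coding genes of at most 1000 bases had a median ratio of -0.45, and the 4035 above 4000 bases one of 0.15. In pair 5 these medians were -0.47 and 0.22, and in pair 4 they were 0.29 and -0.05. The members themselves showed no such trend in pair 4. Their medians there were 0.43 up to 1000 bases, 0.45 up to 2000 and 0.46 up to 4000. Spearman's rho of a member's ratio with length was -0.07 in pair 4, 0.42 in pair 5 and 0.60 in pair 8. Cytosolic ribosomal protein genes, also short, had medians of -0.68 in pair 8, -0.74 in pair 5 and 0.33 in pair 4.

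**Figure D5:**
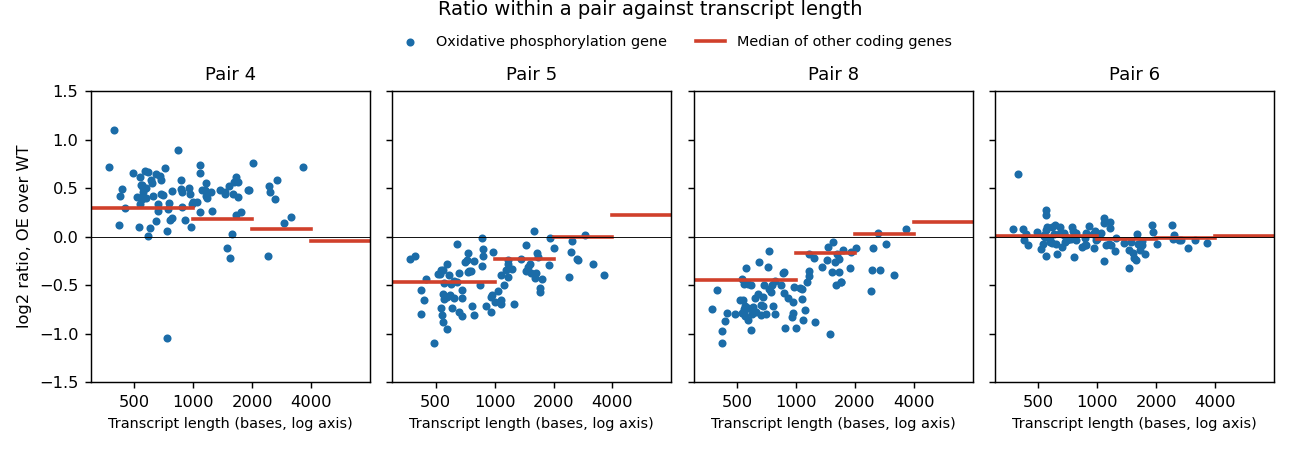
Log2 ratio of OE over WT within a pair (vertical axis) against transcript length (log axis) in pairs 4, 5, 8 and 6; blue points are the 89 genes and red lines the medians of other coding genes up to 1000, 2000 and 4000 bases and above. In pairs 5 and 8 both points and lines rise with length, from -0.47 and -0.45 in the shortest other genes to 0.22 and 0.15 in the longest, and in pair 6 both lie near 0.

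After a smooth curve on transcript length was subtracted in each library, an adjustment chosen after the pattern had been seen, the differences in pairs 4, 5 and 8 shrank. The median ratio of the 89 genes went from -0.40 to -0.01 in pair 5 and from -0.54 to -0.13 in pair 8, and from 0.44 to 0.31 in pair 4, where 77 of the 89 genes were still higher in OE. The median correlation between members was then 0.55. The median log2 fold change was 0.00 with a median standard error of 0.08. The only member called was Cox5a, at 0.19 (SE 0.08, limma p = 0.0423, adjusted p = 1.000, exact sign-flip p = 0.0625, higher in 5 of 7 pairs), beside 4.20% of all genes called in that fit. Cox4i1, at 0.10 (limma p = 0.114), was not called, though its exact sign-flip p was 0.0312 (higher in 6 of 7 pairs).

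The 11 genes with an NRF1 core had a median log2 fold change of -0.04 and the 63 without it one of -0.08. In pair 4 their medians were 0.49 and 0.44, and in pair 8 they were -0.49 and -0.55. For the GABP motif the medians in pair 8 were -0.67 for the 18 genes with it and -0.50 for the 56 without. For the ERR element they were -0.27 with (2 genes) and -0.55 without, for its shorter form -0.71 and -0.53, and for the YY1 motif -0.52 and -0.54. These differences were not tested. Atp5g3 and Sdhd, with the ERR element printed for Atp5g3 above, had fold changes of 0.03 and -0.06.

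Around the complexes, 2 of the genes in 7 lists passed the threshold. Esrrb, an oestrogen-related receptor that binds the ERR element, was the 1 of 15 regulators of mitochondrial biogenesis that was called, at 241 ± 208 normalized counts for WT and 709 ± 468 for OE (SD, n = 7). Its log2 fold change was 1.75 (SE 0.41, limma p = 0.00194, adjusted p = 1.000, exact sign-flip p = 0.0312), and it was higher in OE in 6 of 7 pairs. Its relative Esrra was at -0.01 (SE 0.09), and the coactivator Ppargc1a at -0.06 (SE 0.32). The median of the 15 was 0.04.

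Of 77 genes for mitochondrial ribosomal proteins, which translate the subunits encoded by mitochondrial DNA, Mrps6 alone was called, at 506 ± 113 in WT and 617 ± 187 in OE, a log2 fold change of 0.26 (SE 0.09, limma p = 0.0211, adjusted p = 1.000, exact sign-flip p = 0.0469). The median over the 77 was -0.06. No gene was called among 40 further assembly factors of complexes I to V (median -0.07), 33 genes that maintain and express mitochondrial DNA (0.00), 17 genes of electron carriers and ubiquinone synthesis (0.00), 14 of the citric acid cycle (0.04) or 22 of protein import (-0.05). The share called over all genes was 3.81%.

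Some markers of other cells in the preparation were called, all lower in OE, beside 3.81% of all genes called. Of 12 white adipocyte markers 5 fell in OE and 0 rose; Plin1, which coats lipid droplets, went from 55.9 ± 20.2 to 23.3 ± 10.8 normalized counts (log2 fold change -1.30, limma p = 0.00119, adjusted p = 1.000, exact sign-flip p = 0.0156, lower in 7 of 7 pairs). Adipoq (-1.30) and Cfd (-1.32) fell too. Of 10 fibroblast markers 2 fell, Lum (-0.53) and Pdgfra (-0.40). None of the markers named here had an adjusted p below 0.05. In the paired test of the study Adipoq and Lum were not called. With the adipocyte or the pan-epithelial score as a covariate Lum and Pdgfra were not called, while Plin1, Adipoq and Cfd were. Of the 11 pan-epithelial, 8 luminal hormone-sensing, 9 basal, 5 brown adipocyte, 12 skeletal muscle, 8 pericyte, 10 endothelial, 10 macrophage, 11 lymphocyte and 12 proliferation markers found, none was called. With the adipocyte score as a covariate 1 of the 89 genes was called (Ndufaf4, at -0.46), beside 15.9% of all genes. With the pan-epithelial score 16 were called, all lower in OE, with a median of -0.18, beside 3.67% of all genes.

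Calls also appeared when the pair that stood apart was left out. Without pair 4, 4 of the 89 genes were called, all lower in OE (Sdhd, Cyc1, Ndufa12 and Ndufv2), and the median log2 fold change was -0.16, while 1366 of all genes (8.47%) were called. Without pairs 1 and 4 together, a choice made after seeing the data, 15 were called, all lower, with a median of -0.20, beside 1805 of all genes (11.2%).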

How the data were processed

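Per the labels and the methods, the authors aligned read pairs (mm10) by TopHat2 2.0.10, counted fragments per GENCODE gene with HTSeq 0.6.0, dropped genes with few fragments and divided counts by DESeq 1.18.0 size factors. The deposited signal therefore holds normalized counts, not logged. In every library 100% of them were whole multiples of 1 fragment (tolerance 0.01), which gave the depth (20125106 to 41835978 fragments); depth limits only the rarest isoforms. Pairs came from the labels and the methods, which match littermates; deviations of paired libraries correlated at a median of 0.522 (lowest 0.171), and the highest correlation between libraries of different pairs was 0.634, so the pairing rests on the labels and the methods.

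Genotypes were compared by limma 3.58.1 under R 4.3.3 (lmFit, eBayes with trend, pseudocount 1, pair as a block) over all 16124 genes, with the study's threshold of 0.05 on the unadjusted p and Benjamini-Hochberg adjustment. edgeR 4.0.16 and DESeq2 1.42.0 on recovered fragments were alternatives. Scripts were tested on simulated counts. Lengths, overlaps and shared 75-base windows came from GENCODE M21.

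Genes named are the catalytic or core subunits, the isoforms with their partners, the 3 highest and lowest per kb in each complex, and up to 3 called genes per list and direction; others were named after their values were seen. Members and lists were chosen with earlier results of these data known. The values of 1 gene are not reported here, and it is left out of the plots that name genes.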

Additional observations from a re-analysis of the deposited data

Results flagged for a closer look

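Uqcrc1, the core protein gene of complex III, was at a log2 level of 13.2 in the OE library of pair 4, and the next OE library was at 12.2. The gap was 0.574 of the range of the 7 OE libraries, above the critical value of Dixon's test for groups of this size. Chance flags about 1 in 20 groups, so that of the 108 groups tested about 5.40 would be flagged, and 1 was.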

How the results depend on the processing

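The count of 0 called members held with pseudocounts of 0.1 and 10, a mean of at least 50, no trend, median centring, quantile normalization, TMM scaling, edgeR, DESeq2, the paired test of the study, and the fibroblast, macrophage and proliferation scores as covariates. It became 1 with the adipocyte score (15.9% of all genes called), 16 with the pan-epithelial score (3.67%), 1 with length-adjusted values (4.20%) and 15 without pairs 1 and 4 (11.2%). With each pair left out it ranged from 0 to 4, where 2.36% to 8.47% of all genes were called. The count of members changed in 1 direction in every remaining pair ranged from 0 to 3. Without pair 4 it was 3, all lower, beside 5.75% of all genes. Without pair 1 it was 2, all lower, beside 5.93%. The cause was not tested. Without the replicate block the count was 0 of 89 and the median -0.07, and 182 of all genes were called instead of 614, so pairing mattered for other genes and changed no call of a member; Pdgfra and Mrps6 lost theirs there, and Adipoq and Lum in the paired test. The median log2 fold change of the members, -0.07, ranged from -0.16 to 0.01 with a pair left out (-0.16 without pair 4, -0.01 without pair 5, 0.01 without pair 8) and was 0.02 in the paired test, so its sign is not settled. Of single named genes under all alternatives, 1088 values kept their side of the threshold, 14 passed it and 20 lost a call. The alternatives planned for mitochondrially encoded genes were not run. Depth limits Cox7a1, at about 1 fragment in its lowest library.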
